A study of Mus musculus with 23 samples.

Results

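The chromatin described here surrounds genes that the mouse embryo transcribes at the 2-cell stage and that were chosen for keeping accessibility when Nr5a2 is removed. It comprises 17 of 16958 regions bound by NR5A2, a nuclear receptor and DNA-binding transcription factor. A region was included when its midpoint lay within 50 kb of Zscan4c, Zscan4d, Zscan4f, Zfp352, Obox6, Obox3, Tdpoz3, Tdpoz4, Pdxk or Sp110 and one of these was its nearest protein-coding gene. Of these 10 genes, 7 had a region, and Zscan4c, Zscan4d and Obox3 had none. The genes were chosen by their ratios of knockout over control accessibility in both comparisons, so those ratios are given below as descriptions, and nothing is read from how many of them a test over the whole table called. They bear out the name only in part: all 3 Obox6 regions, for instance, had less signal in the mz knockouts.

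Mouse embryos at the 8-cell stage were profiled by ATAC-seq, where Tn5 transposase cuts and tags DNA that is open. In the mz (maternal and zygotic) series, 8 heterozygous embryos (mz_NrHet) and 13 knockout embryos (mz_NrKO) taken ex vivo each gave a library. In the inducible series (iNrKO), early 2-cell embryos were collected 30 h after hCG and grown in culture for a further 45 h. There, 1 pool (plus Tam, NrKO) received 750 nM 4-hydroxytamoxifen for the first 24 h and 1 pool (minus Tam, Nrpp) received none. The Cre drivers, the alleles behind these labels and the number of embryos per pool are not given in the sources used here. The controls of the mz series are heterozygotes, not wild type, and there is no tamoxifen-treated pool without the deletion, so drug and deletion cannot be told apart. Each group has 1 merged RPKM value per region, so no value carries a spread between embryos. The intervals below cover counting error only. The table holds accessibility and no expression, so the stage could not be checked against its marker transcripts.

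In the mouse, the main wave of zygotic genome activation falls at the 2-cell stage. The transcription factor DUX, the endogenous retrovirus MERVL and gene families present in many recent copies are active in it, and most of their transcripts decline soon after. Zscan4 genes encode zinc finger proteins with a SCAN domain that are linked to telomere maintenance, Obox genes encode homeodomain proteins, and Zfp352 encodes a zinc finger protein. Tdpoz genes encode proteins with TRAF-type and POZ domains, Sp110 encodes a nuclear body protein of the Sp100 family, and Pdxk encodes pyridoxal kinase, which makes the active form of vitamin B6.

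Promoter sequences show how alike some of these genes are. RefSeq promoter windows (GRCm38.p6, the assembly of mm10, 250 bases before to 50 after a start site) were matched for 8 of the 10 genes, with 9 windows, and Obox6 and Tdpoz3 had none. The 3 Zscan4 windows are shown because they are near copies of each other, each on its gene's strand, with capitals marking AAGGNCA or its reverse complement, a shorter core of the NR5A2 element.
Zscan4c (chr7:11005495-11005794, plus strand): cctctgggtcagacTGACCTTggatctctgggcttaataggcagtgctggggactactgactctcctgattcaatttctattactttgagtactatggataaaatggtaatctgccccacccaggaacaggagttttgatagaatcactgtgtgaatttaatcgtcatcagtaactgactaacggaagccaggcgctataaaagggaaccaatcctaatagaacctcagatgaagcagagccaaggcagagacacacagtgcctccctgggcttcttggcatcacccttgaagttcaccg
Zscan4d (chr7:11166099-11166398, minus strand): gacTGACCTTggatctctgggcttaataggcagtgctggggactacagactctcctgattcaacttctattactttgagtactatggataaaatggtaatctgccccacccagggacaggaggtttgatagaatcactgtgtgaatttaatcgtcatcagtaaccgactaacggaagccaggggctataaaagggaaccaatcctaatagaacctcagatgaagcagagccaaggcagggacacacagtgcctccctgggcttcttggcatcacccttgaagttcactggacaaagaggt
Zscan4f (chr7:11397665-11397964, plus strand): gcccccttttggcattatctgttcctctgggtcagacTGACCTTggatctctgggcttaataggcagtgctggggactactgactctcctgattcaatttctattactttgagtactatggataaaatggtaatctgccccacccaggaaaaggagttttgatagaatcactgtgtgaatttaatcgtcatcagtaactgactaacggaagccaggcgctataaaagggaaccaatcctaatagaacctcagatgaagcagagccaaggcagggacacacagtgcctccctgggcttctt
Zscan4c and Zscan4f differed at 2 of 277 aligned bases (99.3% identical), Zscan4c and Zscan4d at 8 of 289 (97.2%), and Zscan4d and Zscan4f at 7 of 266 (97.4%). All of the 3 windows held 1 match to AAGGNCA, which 20.3% of 32851 RefSeq promoter windows hold on either strand. As near copies, the 3 are not independent occurrences. The windows of Zfp352 and Obox3 and 1 window of Sp110 also held 1 match each, so the core was in 6 of the 9 windows. That core was chosen after the sequences had been seen. The longer NR5A2 element TCAAGGNCA was in 0 of the 9 windows and in 1.62% of all windows, and the DUX motif was in 0 of 9 and in 0.0335% of all. The Tdpoz4 window was 96.2% identical to that of Tdpoz8 over 293 aligned bases, while Obox3 was at most 75.5% identical to another Obox window. The sources used here do not say how the authors treated reads that align equally well to several copies, and the part of this in the values below was not tested.

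The Zfp352 window and the upstream Sp110 window are shown for their repeated words, with capitals marking GGATTA or its reverse complement, the core bound by homeodomain proteins of the OTX type, to which Obox proteins are related.
Zfp352 (chr4:90218570-90218869, plus strand): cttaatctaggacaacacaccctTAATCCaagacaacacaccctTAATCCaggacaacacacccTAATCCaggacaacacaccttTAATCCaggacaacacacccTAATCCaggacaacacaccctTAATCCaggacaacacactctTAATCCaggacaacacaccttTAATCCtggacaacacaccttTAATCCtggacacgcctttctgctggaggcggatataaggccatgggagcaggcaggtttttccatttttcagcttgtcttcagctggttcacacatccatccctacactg
Sp110 (chr1:85603842-85604141, minus strand): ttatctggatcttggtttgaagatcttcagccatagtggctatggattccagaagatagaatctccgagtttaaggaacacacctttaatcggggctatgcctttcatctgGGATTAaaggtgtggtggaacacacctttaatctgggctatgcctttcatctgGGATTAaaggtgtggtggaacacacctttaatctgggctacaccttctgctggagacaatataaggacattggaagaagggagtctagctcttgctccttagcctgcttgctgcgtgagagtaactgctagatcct
The Zfp352 window held 9 matches to GGATTA, the highest number in the 32851 windows and reached in this 1 alone. The upstream Sp110 window held 2, and 0.359% of all windows hold 2 or more. The downstream Sp110 window and that of Obox3 held 1 each. At least 1 match was present in 7.06% of all windows. Zfp352 and Sp110 also shared the word aacacacctttaatc, which occurs 3 times in each and in 0.0700% of all windows, a comparison made after the sequences had been seen. These matches describe letters only. Of the 13 listed regions whose gene has a window, 0 overlapped it, and their midpoints lay between 1.56 and 53.1 kb from the nearest start site of the gene, so the accessibility values below are not those of the printed windows.

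The values rest on few reads. RPKM values were whole multiples of the value of 1 read, which was 0.587 RPKM in heterozygotes, 0.359 in mz knockouts, 0.163 in the untreated and 0.170 in the treated pool. The 17 regions together held 111 reads in heterozygotes and 247 in mz knockouts, and 499 and 509 in the untreated and treated pools. Over all 16958 regions accessibility was lower in both knockouts, with ratios of summed RPKM of 0.668 for mz and 0.694 for the pools. The median region was lower by −0.32 and −0.35 on the log2(RPKM + 1) scale, a scale that understates changes of low values, and ratios below are also given relative to this median shift. More embryos or cells with an open region and a more open region in each cell cannot be told apart in these libraries.

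As a group, the 17 regions were about evenly divided between higher and lower values. In the mz knockouts 9 of 17 had at least the heterozygote value, against 35.7% of all regions, and in the treated pool 9 of 17 had at least the untreated value, against 25.6%. Both comparisons were at or above control in 6 regions (11.9% of all regions) and below control in 5 (50.5% of all regions). The 6 regions at or above control in both were the one near Zscan4f, 2 near Zfp352, 1 near Pdxk and both inside Sp110. By an exact binomial test per region on reads, adjusted by Benjamini-Hochberg across the whole table (threshold 0.05), 2 members were higher in the mz knockouts, both in Sp110, where 0.0236% of all regions were called higher. The same test called 0 members lower, where 1.73% of all were, and 1 of 17 was lower at an unadjusted p under 0.05, against 11.9% of all regions. In the inducible series 1 region near Zfp352 was called higher (0.0767% of all regions) and 1 region inside Pdxk lower (6.37% of all). The authors, from the mean of both ratios, class 6 of the 17 as Up, 4 as Down and 7 as Unchanged, against 16.9%, 41.5% and 41.6% of all regions. The genes were chosen for these ratios, so nothing is read from these counts.

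**Figure D1:**
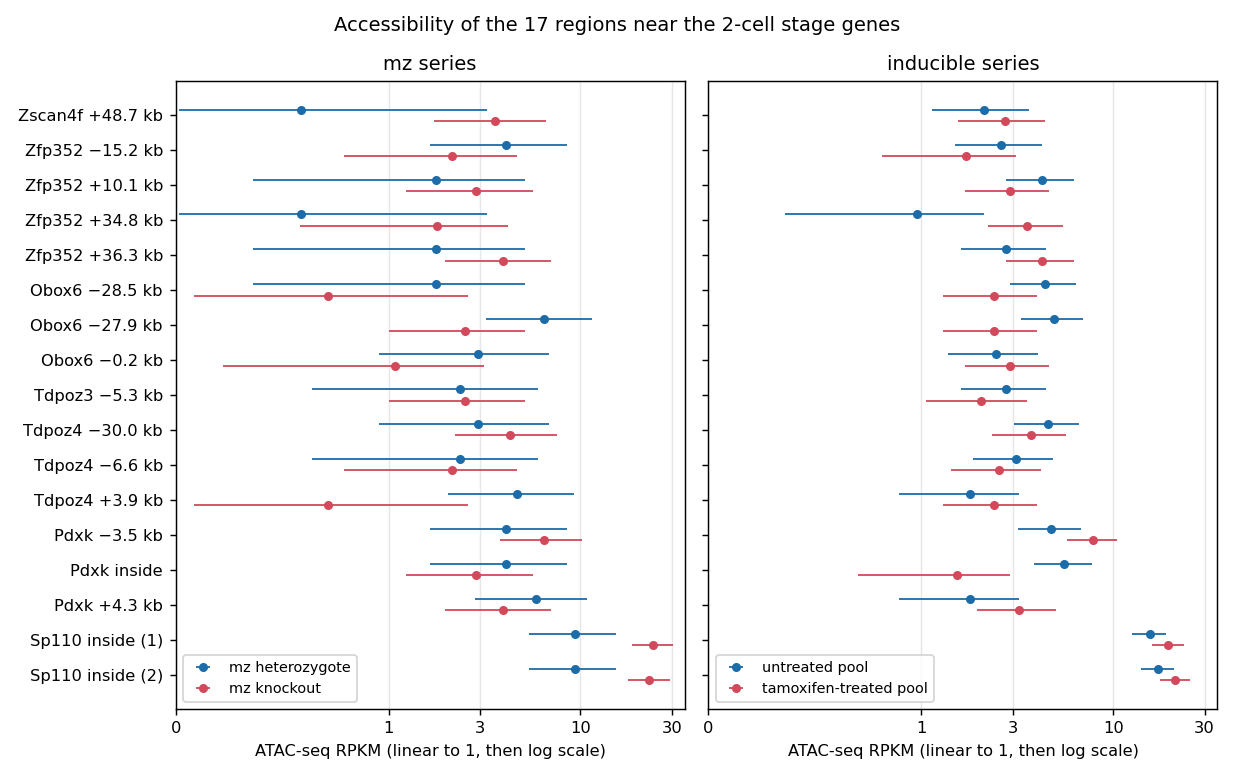
ATAC-seq RPKM (horizontal axis, linear to 1 and logarithmic above) of each of the 17 regions in the mz series (left) and the inducible series (right), with exact Poisson 95% intervals for counting error. Labels give the gene and the distance of the region's midpoint below (−) or above (+) the gene's span in genome coordinates. The pair inside Sp110 lies at 23.0 to 24.0 RPKM in mz knockouts and 9.40 RPKM in heterozygotes, above the other regions in all 4 columns.

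The Zscan4 cluster on chromosome 7 contributed 1 region, and it lay far from its gene. This region (chromosome 7, 11450925 to 11451187) is 48.7 kb above Zscan4f, and no other listed region lies within 100 kb of it. It had 0.587 RPKM in heterozygotes, from 1 read, and 3.59 RPKM in mz knockouts, from 10 reads. The untreated pool had 2.12 RPKM and the treated pool 2.72 RPKM. The knockout value was thus the higher one in both series, but the ratio of 6.11 in the mz series had an interval from 0.869 to 265, and the inducible ratio was 1.28 (0.579 to 2.90). Both intervals include 1. For Zscan4c the closest listed region was 69.6 kb away, outside the distance limit, and the same region was the closest to Zscan4d, at 81.5 kb.

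Zfp352, on chromosome 4, had 4 regions that did not move together. The region 15.2 kb below the gene (90203410 to 90203782) had 4.11 RPKM in heterozygotes and 2.15 in mz knockouts, and 2.61 and 1.70 RPKM in the untreated and treated pools. It was the one Zfp352 region with the lower value in both knockouts. The region 10.1 kb above the gene (90235655 to 90235888) had 1.76 and 2.87 RPKM in the mz series and 4.24 and 2.89 RPKM in the inducible series, so its direction differed between the series. The remaining pair lies 34.8 and 36.3 kb above the gene, with midpoints 1.44 kb apart, and both had the higher value in both knockouts. The nearer one (90260370 to 90260659), which the authors class as not accessible, had 0.587 and 1.79 RPKM in the mz series and 0.979 and 3.57 RPKM in the inducible series, a ratio of 3.65 (95% interval 1.42 to 11.1). The farther one (90261837 to 90262079) had 1.76 and 3.95 RPKM, and 2.77 and 4.25 RPKM. Summed over the 4 regions, the ratio was 1.31 (0.673 to 2.67) for mz and 1.17 (0.827 to 1.66) for the pools, and 1.63 (0.840 to 3.34) and 1.49 (1.05 to 2.12) relative to the median shift. The inducible interval included 1 before this scaling and lay above 1 after it.

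The regions near Obox6, on chromosome 7, had lower values in mz knockouts at each of 3 sites. The region 27.9 kb below the gene (15805226 to 15805472) had 6.46 RPKM in heterozygotes and 2.51 in mz knockouts, and 4.90 RPKM untreated and 2.38 treated. Its neighbour 28.5 kb below the gene (15804585 to 15804968) had 1.76 and 0.717 RPKM, and 4.41 and 2.38 RPKM. The midpoints of these neighbours are 573 bp apart and the authors give both the same ATAC-seq summit, so they are not independent measurements. The third region (15832928 to 15833210), classed as not accessible, lies 181 bp below the gene and had 2.94 and 1.08 RPKM in the mz series but 2.45 and 2.89 RPKM in the inducible series. Summed over the gene, the mz ratio was 0.386 (0.171 to 0.837) and the inducible ratio 0.652 (0.439 to 0.959), both intervals below 1, with the neighbours counted as separate reads. Scaled to the median shift the ratios were 0.48 (0.213 to 1.05) and 0.83 (0.559 to 1.22), and scaled to the sum over all regions 0.58 (0.255 to 1.25) and 0.94 (0.632 to 1.38). The ratios stayed below 1 and all 4 scaled intervals included 1. Obox3, in the same cluster, was 165.0 kb from the closest listed region.

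Tdpoz4 and Tdpoz3, neighbours on chromosome 3, had 4 regions, all classed as accessible and as unchanged by the authors. Near Tdpoz4, the region 30.0 kb below the gene (93766180 to 93766546) had 2.94 RPKM in heterozygotes and 4.30 in mz knockouts, and 4.57 and 3.74 RPKM in the untreated and treated pools. The region 6.63 kb below it (93789645 to 93789889) had 2.35 and 2.15 RPKM, and 3.10 and 2.55 RPKM. The region near Tdpoz3, 5.29 kb below that gene (93820585 to 93820884), had 2.35 and 2.51 RPKM, and 2.77 and 2.04 RPKM. These 3 regions had similar levels in all 4 columns, with intervals that overlap. The region 3.88 kb above Tdpoz4 (93801223 to 93801548) stood apart in the mz series, with 4.70 RPKM from 8 reads in heterozygotes and 0.717 RPKM from 2 reads in knockouts, a ratio of 0.153 (0.0158 to 0.765). In the inducible series it had 1.80 RPKM untreated and 2.38 RPKM treated, a ratio of 1.33 (0.560 to 3.23), on the other side of 1. The 4 regions together had ratios of 0.785 (0.427 to 1.46) and 0.876 (0.616 to 1.24), which became 0.98 and 1.12 relative to the median shift and 1.17 and 1.26 relative to the sum over all regions, so their direction depends on the scaling.

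Sp110, on chromosome 1, held the pair of regions with the highest values. Both lie inside the gene's span and also inside that of its relative Sp140, which overlaps it, so the nearest gene is tied and the regions belong as much to Sp140. Their midpoints are 772 bp apart and lie 7.52 and 6.75 kb downstream of the nearest Sp110 start site. The region from 85591105 to 85591471 had 9.40 RPKM in heterozygotes and 24.0 in mz knockouts, and 15.5 and 19.4 RPKM in the untreated and treated pools. The region from 85591897 to 85592224 had 9.40 and 23.0 RPKM, and 17.1 and 21.1 RPKM. The mz intervals of each region did not overlap, and the inducible intervals did. With the neighbours counted as separate reads, the pair's ratio was 2.50 (1.69 to 3.80) for mz and 1.24 (1.02 to 1.50) for the pools. Taken singly, the regions had inducible ratios of 1.25 (0.944 to 1.66) and 1.23 (0.942 to 1.61), and both intervals included 1. Whether the 2 regions share reads was not tested. Besides these, Sp140 had 2 more regions, both classed as not accessible. One had 1.76 RPKM in heterozygotes and 0.717 in mz knockouts, and 1.63 and 0.851 RPKM in the untreated and treated pools. The other was at 0 and 1.43 RPKM, and 0.816 and 0.510 RPKM. Both thus had the lower value in the treated pool, from 10 and 5 reads in the first region and 5 and 3 in the second. Their inducible ratios were 0.521 (0.140 to 1.67) and 0.626 (0.0971 to 3.22). Both intervals included 1, so a direction opposite to that of the Sp110 pair is not shown.

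Pdxk, on chromosome 10, had 3 regions with 3 different patterns. The region 3.48 kb below the gene (78433031 to 78433512) had 4.11 RPKM in heterozygotes and 6.46 in mz knockouts, and 4.73 and 7.83 RPKM in the untreated and treated pools, higher in both knockouts. The region inside the gene (78463243 to 78463529), 1.56 kb downstream of the start site, had 4.11 and 2.87 RPKM, and 5.55 and 1.53 RPKM, lower in both, with an inducible ratio of 0.276 (0.116 to 0.588). The region 4.28 kb upstream of the start site (78469085 to 78469371) had 5.87 and 3.95 RPKM in the mz series and 1.80 and 3.23 RPKM in the inducible series. The last 2 are classed as not accessible. Summed, Pdxk had ratios of 0.941 (0.548 to 1.64) and 1.04 (0.745 to 1.46), and the mz ratio turned to 1.18 relative to the median shift.

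**Figure D2:**
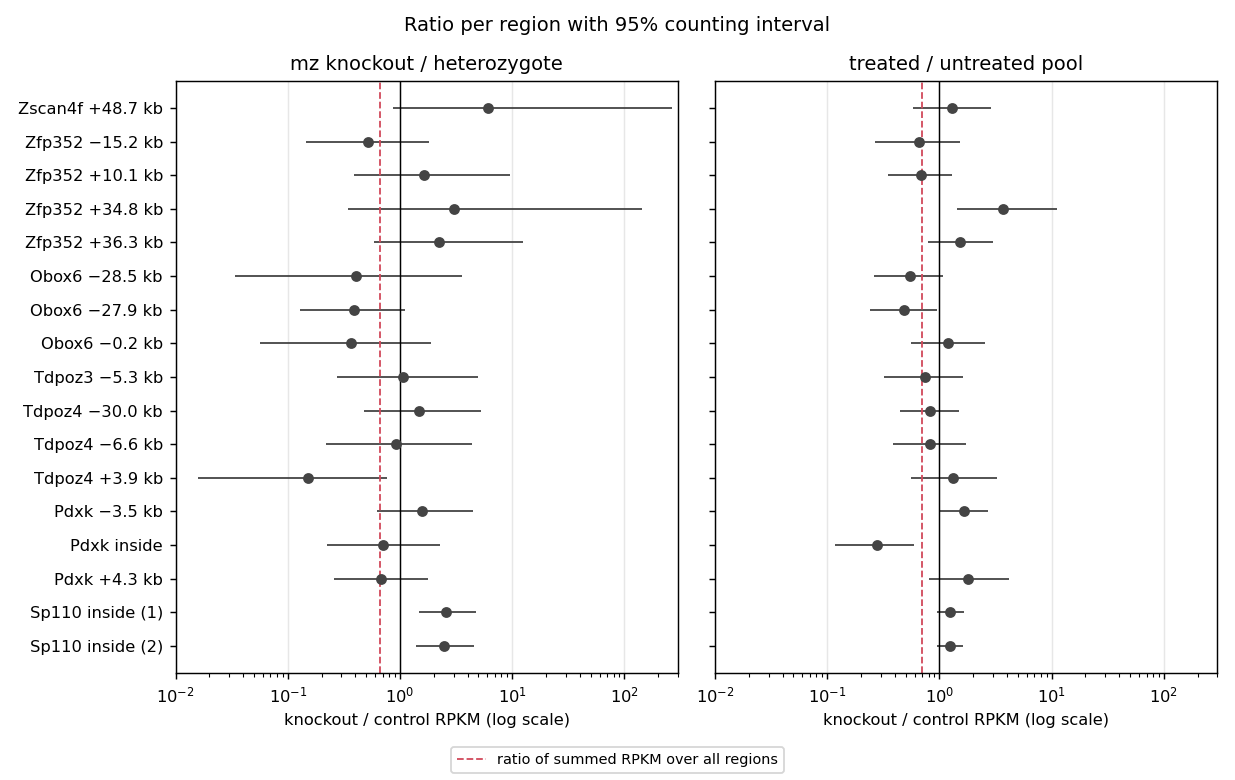
Knockout over control ratio of RPKM (horizontal axis, log scale) for each of the 17 regions in the mz series (left) and the inducible series (right), with exact 95% intervals for counting error. The solid line marks 1 and the dashed line the summed ratio of all listed regions, 0.668 and 0.694. The intervals of both Sp110 regions in the mz series lie above 1, and most others include both lines.

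Summed, the 17 regions had 65.2 RPKM in heterozygotes and 88.6 in mz knockouts, a ratio of 1.36 (1.08 to 1.72), and 81.4 and 86.6 RPKM in the untreated and treated pools, a ratio of 1.06 (0.938 to 1.21). These intervals count the reads of the neighbouring Sp110 and Obox6 regions as separate. Any reads shared between neighbours would make the intervals too narrow, and such sharing was not tested. The Sp110 pair made up 28.8% of the heterozygote sum and 53.0% of the mz knockout sum, and 40.1% and 46.8% of the pool sums. Without it, the mz ratio over 15 regions was 0.896 (0.668 to 1.21), on the other side of 1, and the inducible ratio was 0.945 (0.799 to 1.12). Relative to the median shift, the ratios without Sp110 were 1.12 (0.834 to 1.51) and 1.20 (1.02 to 1.42). The median log2 ratio of the 17 regions on the log2(RPKM + 1) scale was 0.07 for mz and 0.17 for the pools. Without the Sp110 pair these medians were −0.09 and −0.21, on the other side of 0. Over all regions the medians were −0.32 and −0.35. In levels, the median member had 2.94 RPKM in heterozygotes and 2.87 in mz knockouts, where the median of all regions was 2.35 and 1.43 RPKM, and 3.10 and 2.89 RPKM in the pools, against 2.28 and 1.53 RPKM. The Sp110 pair was highest in every column. The next member reached 6.46 RPKM in heterozygotes and in mz knockouts, 5.55 RPKM untreated and 7.83 RPKM treated, and the intervals of that member and the Sp110 pair overlapped in heterozygotes and not in the other 3 columns. Below the pair, neighbours in the order of levels did not differ beyond their counting intervals.

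**Figure D3:**
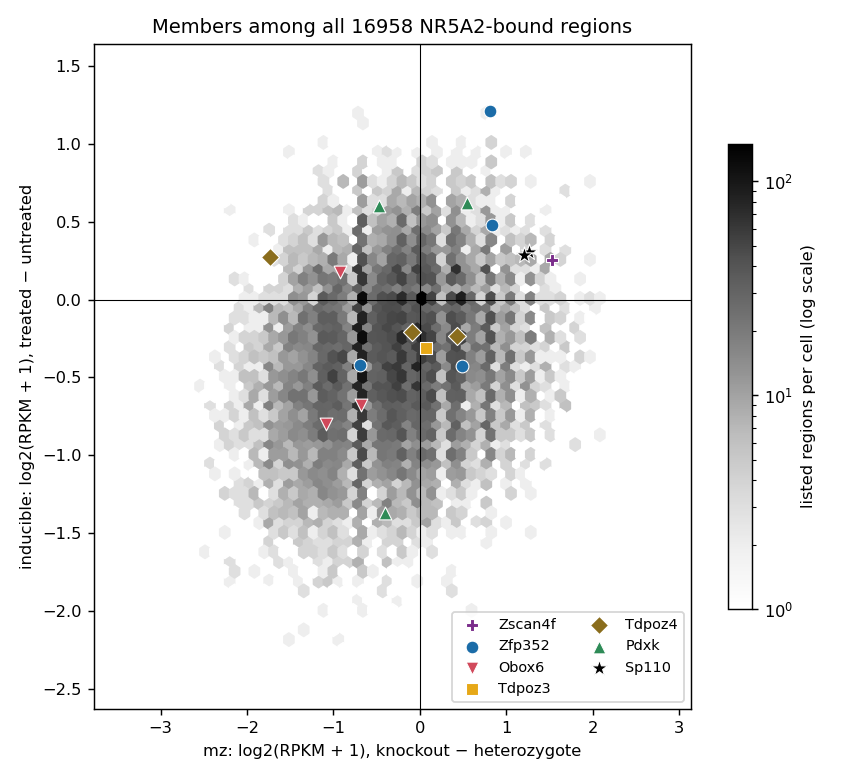
Change of each listed region in the mz series (horizontal axis) and the inducible series (vertical axis), both as differences of log2(RPKM + 1). Grey cells count all 16958 regions on a log scale, and coloured symbols are the 17 regions by gene. The Sp110 pair, the Zscan4f region and 2 Zfp352 regions lie in the upper right quadrant with 1 Pdxk region, and 2 of the 3 Obox6 regions lie at the lower left.

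The authors class 13 of the 17 regions as accessible (76.5%, against 48.5% of all regions). The genes were chosen for keeping accessibility, so this share is not independent of the choice. Several other features were not used to choose the genes. NR5A2 binding, as CUT&RUN RPKM from an earlier study, had a median of 4.92 at the 17 regions and 4.15 over all regions. It ranged from 1.55 at the Obox6 region 27.9 kb below the gene, from 11 reads, to 9.08 in the Pdxk span, from 75 reads. The Sp110 pair had 6.57 and 6.63 RPKM. Of the 4 Zfp352 regions, 3 had 6.29 to 6.68 RPKM and the other 3.59 RPKM. The neighbouring Obox6 pair had 1.55 and 2.26 RPKM and the third Obox6 region 4.42 RPKM. The 4 Tdpoz regions ranged from 2.13 to 4.92 RPKM and the 3 Pdxk regions from 3.68 to 9.08 RPKM. The region inside Pdxk, with the strongest binding, had less accessibility in the treated pool (5.55 and 1.53 RPKM, ratio 0.276, 0.116 to 0.588). The Pdxk region upstream of the start site, with 7.39 RPKM of CUT&RUN signal, had 1.80 and 3.23 RPKM (ratio 1.80, 0.814 to 4.19). The Zscan4f region, with 7.13 RPKM of CUT&RUN signal, had 2.12 and 2.72 RPKM (ratio 1.28, 0.579 to 2.90). The intervals of the last 2 regions included 1. The authors moved the CUT&RUN summit onto an NR5A2 motif in 15 of 17 regions (88.2%, against 89.3% of all), the exceptions being 1 Sp110 region and the region inside Pdxk. The median distance between ATAC-seq and CUT&RUN summits was 57 bp at the accessible members and 104 bp in all accessible regions. The members were 234 to 482 bp long, and 3 of 17 (17.6%) lay inside a gene span, against 50.9% of all regions. These 3 lay in Pdxk and Sp110, with spans of 28.2 and 40.1 kb. The other member genes with a region had spans of only 1.10 to 6.87 kb, and gene length was not accounted for. Since neighbouring regions share loci, no test over regions was made on these features.

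**Figure D4:**
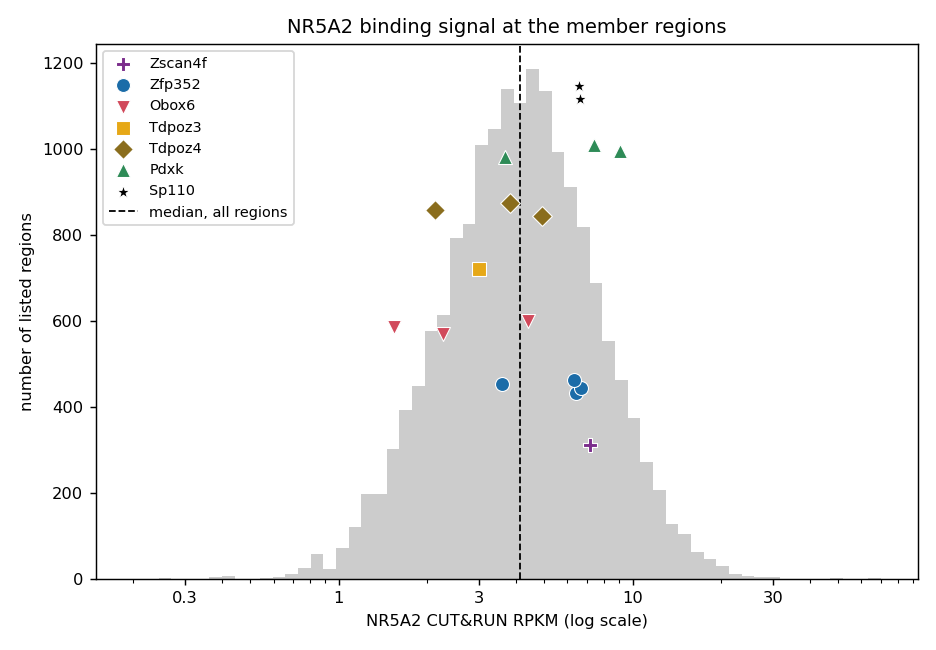
NR5A2 CUT&RUN RPKM (horizontal axis, log scale) of the 17 regions, as symbols in one row per gene, over a histogram of all 16958 listed regions (vertical axis, number of regions; the height of a symbol has no meaning). The dashed line is the median of all regions, 4.15. The Sp110 and Zscan4f regions lie to its right and the Tdpoz3 region and 2 of the 3 Obox6 regions to its left.

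With limits of 10 and 100 kb in place of 50 kb, the summed ratios were 1.47 and 1.36 for mz and 1.15 and 1.03 for the pools. The farthest regions inside it were the Zscan4f region at 48.7 kb and the Zfp352 region at 36.3 kb, described above. Just outside was a region 69.6 kb from Zscan4c (chromosome 7, 11080077 to 11080241), with 0.587 and 0.717 RPKM in the mz series and 3.26 and 0.851 RPKM in the pools. The other excluded region, 485.9 kb from Zfp352, was at 0 RPKM in both mz columns and at 0.163 and 0.510 RPKM in the pools.

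Further genes of the 2-cell stage were taken from a longer list. Of the 65 further genes listed, 51 were in the gene table and 26 had a region, with 50 regions besides the Sp110 pair. These had a ratio of 0.846 (0.732 to 0.979) for mz and 0.753 (0.686 to 0.826) for the pools, and relative to the median shift 1.06 (0.914 to 1.22) and 0.96 (0.874 to 1.05), so the mz direction depends on the scaling. At or above control were 22 of 50 for mz (44.0%, against 35.7% of all regions) and 9 of 50 for the pools (18.0%, against 25.6%). In both comparisons, 5 of 50 were at or above control (10.0%, against 11.9%) and 24 were below it (50.5% of all regions). The binomial test called 0 of 50 in the mz series, where 1.73% of all regions were called lower and 0.0236% higher. At an unadjusted p under 0.05, 3 of 50 were lower there, against 11.9% of all regions, and 0 higher, against 0.708% of all. In the inducible series the binomial test called 1 lower, a region near Sertad1 (6.37% of all regions), and 0 higher (0.0767% of all). There, 8 were lower and 0 higher at an unadjusted p under 0.05 (19.7% and 0.879% of all regions).

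With regions summed by gene, 11 of the 26 genes were below control in both series, namely Tdpoz1, Tdpoz2, Alppl2, Pramel6, Trim43a, Snai1, Dppa2, Dppa4, Btg1, Hspa1a and Sertad1. Among these 11, only Alppl2 had both unscaled intervals below 1. For Tdpoz2, Pramel6, Trim43a, Snai1 and Dppa4 both intervals included 1. For the others only the inducible interval lay below 1. At or above control in both were 4, Usp17lb, Trim43c, Zfp809 and Gm5662. Among all single regions, not summed by gene, 50.5% were below control in both and 11.9% at or above it in both. Another 9 genes were at or above control in mz knockouts and below it in the treated pool (Tcstv3, Sp140, Spz1, Pramel7, Ubtfl1, Nelfa, Gm2016, Lpin1 and Ccnb1ip1), and 2 had the reverse order (Rfpl4b and Gm8300). Sp140 is placed here without the pair it shares with Sp110, by 2 regions with 2.45 RPKM untreated and 1.36 treated. The shared pair had 32.6 and 40.5 RPKM there, so the direction of Sp140 depends on leaving it out. Alppl2, an alkaline phosphatase gene, had 29.4 RPKM over 5 regions in heterozygotes and 13.6 in mz knockouts, and 23.0 and 17.0 RPKM in the untreated and treated pools. Its ratios of 0.464 (0.296 to 0.722) and 0.739 (0.566 to 0.962) both had intervals below 1. These intervals also included the summed ratios over all regions, 0.668 and 0.694. Dppa2, which encodes a DNA-binding protein of pluripotent cells, had 15.9 and 11.5 RPKM over 5 regions, and 17.3 and 11.7 RPKM. Its relative Dppa4 had 21.1 and 19.0 RPKM over 4 regions, and 13.2 and 9.53 RPKM. Lpin1, a phosphatidate phosphatase gene, had nearly level sums of 7.64 and 7.89 RPKM over 4 regions in the mz series, and 13.7 and 5.45 RPKM in the pools, an inducible ratio of 0.397 (0.256 to 0.603). Alppl2, Dppa2, Dppa4 and Lpin1 are the genes of this list with the most regions, when the pair shared with Sp110 is not counted for Sp140. The relatives of the Tdpoz members had lower sums in both knockouts, mostly within counting error. Over 2 regions, Tdpoz2 had 9.40 and 8.97 RPKM, and 11.8 and 10.2 RPKM. Its unscaled ratios were 0.954 (0.490 to 1.91) and 0.869 (0.606 to 1.24), and both intervals included 1. At 1 region, Tdpoz1 had 2.94 and 1.43 RPKM, and 3.10 and 1.19 RPKM. Its unscaled ratios were 0.488 (0.0969 to 2.27) and 0.384 (0.136 to 0.954), and the mz interval included 1. The genes at or above control in both had 1 or 2 regions each. Of these, Usp17lb, a deubiquitinase gene, had 1.76 and 4.66 RPKM over 2 regions, and 5.55 and 7.15 RPKM, and Gm5662 had 1.76 and 4.66 RPKM, and 3.26 and 4.93 RPKM. The intervals of all ratios of Usp17lb, Trim43c, Zfp809 and Gm5662 included 1.

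For comparison, the 21 regions of oocyte and maternal-effect genes had ratios of 0.454 (0.374 to 0.551) and 0.758 (0.657 to 0.875). Relative to the median shift these were 0.567 (0.468 to 0.688) and 0.967 (0.837 to 1.11), and the inducible interval then included 1. At or above control in both comparisons were 0 of 21, against 11.9% of all regions. The 8 regions near genes of granulosa and cumulus cells, which surround the oocyte, had ratios of 0.817 (0.594 to 1.13) and 0.869 (0.689 to 1.09). Relative to the median shift these were 1.02 (0.742 to 1.41) and 1.11 (0.879 to 1.39). Of these 8 regions, 2 were at or above control in both comparisons (25.0%). No difference between these lists was tested, since the lists were chosen with the ratios known.

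By the pair of summed ratios, the genes most like the members as a group were Dync1li2, Fam168a, Gpr155, Bnip3 and Fads2, in that order. They came from 942 genes with at least 2 regions and 50 reads in the mz columns, compared over 4 merged columns. Their mz ratios ranged from 1.19 to 1.48 and their inducible ratios from 0.999 to 1.19. The members' own ratios of 1.36 and 1.06 rest on Sp110, without which they were 0.896 and 0.945. No ranking was made against the ratios without Sp110.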

How the data were processed

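The authors deposited 1 table of 16958 NR5A2-bound regions with 1 merged ATAC-seq RPKM value per group, a CUT&RUN RPKM value and summits, per the file headers. It also holds a deposited ratio per series, equal to (knockout + 0.01)/(control + 0.01) within a relative 4.5e-07. Cutadapt, Bowtie2, MACS2 and mm10 are named per the submitters' processing notes. Versions, duplicate removal and handling of multiply mapping reads are not given in the sources used here. ATAC-seq RPKM values were whole multiples of 1 step per column within 0.0001 of a step for 100% of values, whatever the region's length, so reads were recovered by division. CUT&RUN values were divided by region length, and gave whole reads within 0.01. Reads summed to 99826 in heterozygotes, 109296 in mz knockouts, 285671 untreated and 190091 treated.

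Regions were assigned to the nearest protein-coding span of the RefSeq gene table (GRCm38.p6), ties counting for any member. The table has no exons. Exact Poisson and Clopper-Pearson 95% intervals, and exact binomial tests adjusted over all regions, used scipy 1.17.1, and promoters were aligned with Biopython 1.88, keeping alignments of at least 150 bases. The test was checked on simulated data. Tests needing values per embryo were not run. Members and lists were chosen with earlier results of these data known. Genes named are all members and all genes of the 2-cell list with a region, while the oocyte and cumulus lists are given by sums. The 5 most alike genes have the smallest distance in both log2 ratios.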

Additional observations from a re-analysis of the deposited data

How the results depend on the processing

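The members' mz ratio of 1.36 and inducible ratio of 1.06 were each recomputed under 15 alternatives. The mz ratio was 2.03 with the columns scaled to a summed ratio of 1 over all regions, and 1.05 or 1.07 as a median of region ratios with a pseudocount of 1 or 0.1 RPKM. It turned to 0.896 without Sp110, whose 2 regions carry the sum, and the cause of their high values was not tested. The medians depend on that pair too. Without it, the median log2 ratio with a pseudocount of 1 RPKM was −0.09 for mz and −0.21 for the pools. The inducible ratio was 1.36 with the columns scaled to the median and 1.53 with the summed ratio scaled to 1. The other 11 and 13 values lay inside the counting interval of the main value, including those for 10 and 100 kb, at least 5 reads, accessible regions, and each other gene left out. Over all regions, the mz test called 293 lower and 4 higher, and with median scaling 52 and 7, and with sum scaling 14 and 13. The inducible test called 1081 and 13, then 199 and 22, then 78 and 37. No paired analysis was possible because the table holds 1 merged value per group, and for the same reason no embryo could be left out. The mz columns held 4 reads in the median region, so single regions with no call are not shown to be unchanged.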
